A study of Mus musculus with 12 samples.

Results

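AktI is a cell-permeable inhibitor of the kinase Akt, and the transcripts of cytotoxic T lymphocytes (CTL) grown with it were compared with those of the same animals' CTL grown in IL-2 alone. The comparison takes 6 of the 12 arrays of the series: the 3 labelled wild type CTL+AktI and the 3 labelled wild type CTL, paired by the mouse number in their descriptions. The mice were wild-type C57BL/6 animals whose age the labels do not give. Splenocytes of each mouse were activated through CD3 for 48 hr (antibody 2C11, 0.5 μg/ml, with IL-2 at 20 ng/ml). They were then washed and grown on in the same concentration of IL-2 over 5 days. Part of each culture received 1 μM AktI-1/2 during the final 48 hr, so that both cultures of a pair shared the animal, the activation and the first days in IL-2. No group of untreated or vehicle-only cells beyond IL-2 alone was compared here.

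Akt is a kinase that PI3K products bring to the plasma membrane, where PDK1 phosphorylates it. Active Akt phosphorylates the Foxo transcription factors, which then leave the nucleus. With Akt inactive, Foxo proteins occupy genes of quiescence, survival and lymph node homing, among them Klf2 and Il7r, and CTL in strong IL-2 normally keep such genes low while they express granzymes, perforin and interferon-γ.

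With AktI, 5 of 10 genes of lymph node homing and 8 of 25 of Foxo factors and quiescence rose, and none of them fell. Of cytolytic granules 8 of 24 genes fell and 1 rose, of cytokines 3 of 25 fell and 1 rose, and of the type I interferon response 7 of 32 fell and 1 rose. Of 18193 genes measured, 285 were higher with AktI (1.57%) and 202 were lower (1.11%), together 2.68%. A gene passed where the change was 1.5-fold or more and limma, fitted with the mouse as a block, gave an adjusted p under 0.05. "Rose" and "fell" are used for such genes. All values are log2 signals of 1 probe set per gene, given in the order of mice 1 to 3. A fold change is the mean over the 3 pairs. Where a gene is described in full, it is printed with the moderated standard error (SE) of limma. That SE draws on the variance of all probe sets and is not the scatter of the 3 differences alone. At least 2-fold changes were found for 98 genes higher and 59 lower, and at least 4-fold changes for 13 and 8. At an unadjusted p under 0.05, 1773 genes were higher and 1923 lower. All 487 genes that passed moved the same way in all 3 pairs, and for 477 of them the AktI and IL-2 values did not overlap, as was also the case for 27.4% of all genes measured.

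**Figure D1:**
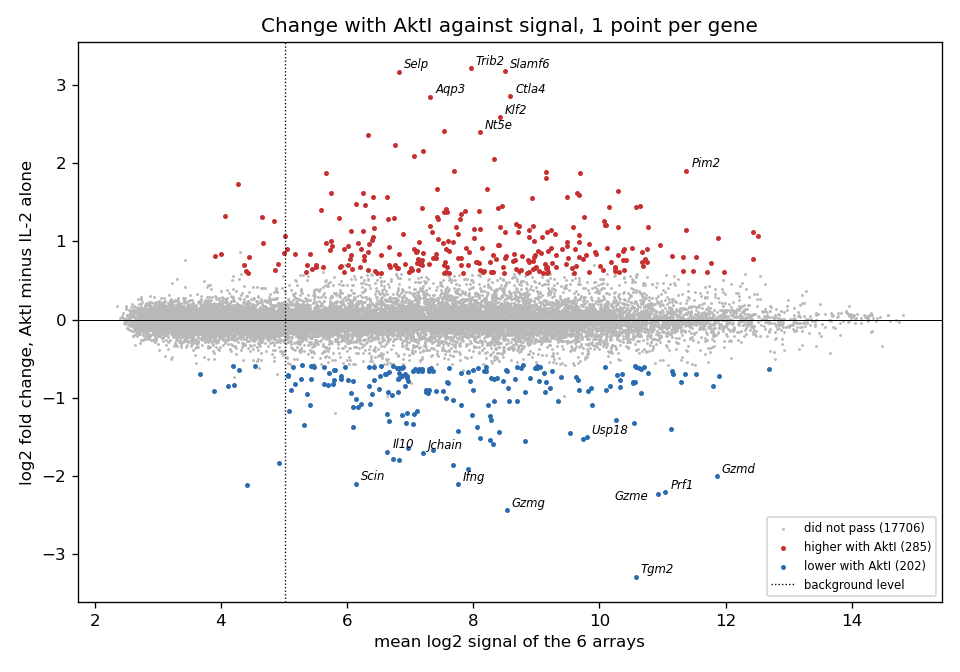
Log2 fold change with AktI (y axis) against the mean log2 signal of the 6 arrays (x axis), 1 point per gene. Red points are the 285 genes higher and blue points the 202 lower with AktI, grey points did not pass, and the dotted line is the background level of 5.009. The genes that passed lie mostly above that line and over a wide range of signals, and the 4-fold changes number 13 up and 8 down.

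The median log2 signal of the 6 arrays was 5.102 to 5.141. Arrays of IL-2 alone correlated with each other at r = 0.9971 to 0.9973 across probe sets, those with AktI at 0.9974 to 0.9978, and the arrays of a pair at 0.9943 to 0.9951. The differences within the 3 pairs correlated with each other at r = 0.779 to 0.806 across the 11847 genes above background, where genes are not independent replicates. Background was the log2 signal that 95% of 78 olfactory and vomeronasal receptor probe sets did not exceed. The median change over all genes was -0.0161. Of the genes that passed, 21 rose from a mean below background and 20 fell to one, so that the sizes of these changes are not exact. For 14 of these genes both means were below it. Array values show RNA per sample, so fewer cells of a type and less RNA per cell cannot be told apart. The number of arrays limits the precision.

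The transcripts of the targeted kinases did not pass. Akt1 had log2 signals of 10.31, 10.27 and 10.33 in IL-2 alone and 10.24, 10.20 and 10.25 with AktI (log2 fold change -0.07 ± 0.0639 SE, adjusted p = 0.635), and the groups did not overlap. Akt2 had a log2 fold change of -0.17 (adjusted p = 0.301) and Pdpk1, which encodes PDK1, of -0.14 (adjusted p = 0.388). The inhibitor acts on the protein, so these values do not check the treatment. Of the Foxo factors, Foxo1 had 9.12, 8.96 and 9.0 in IL-2 alone and 8.89, 8.70 and 8.68 with AktI (log2 fold change -0.27 ± 0.0658 SE, adjusted p = 0.0834) and did not pass. Foxo3 rose, from 7.02, 7.48 and 7.23 to 7.74, 7.93 and 8.08 (log2 fold change 0.67 ± 0.093 SE, adjusted p = 0.0143). Its call ended without mouse 1 (adjusted p = 0.113) or mouse 3 (0.063), and with the mean of its 3 probe sets the change was 0.436, under 1.5-fold.

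Of 33 measured genes of the PI3K, Akt and mTOR pathway, 3 rose and 1 fell. Pik3ip1, an inhibitor of PI3K at the cell surface, had log2 signals of 7.39, 7.18 and 6.82 in IL-2 alone and 8.45, 8.60 and 8.37 with AktI (log2 fold change 1.34 ± 0.104 SE, adjusted p = 0.00184). Pik3r5, the p101 regulatory subunit of PI3Kγ, had 8.05, 8.33 and 8.02 in IL-2 alone and 9.47, 9.26 and 9.24 with AktI (log2 fold change 1.19 ± 0.102 SE, adjusted p = 0.00259). In both genes every AktI value was above every IL-2 value. Phlpp1, a phosphatase that dephosphorylates Akt, rose by 0.88 (adjusted p = 0.00334). Pik3ap1, the adaptor BCAP, changed by -0.63 (adjusted p = 0.0116), but did not pass without mouse 1 (0.0771), without mouse 2 (0.0655) or without the pairing (0.0629). Its other probe set had -0.881 and passed (adjusted p = 0.00963). Of 14 other AGC kinases measured none passed, while 6 were higher and 0 lower at an unadjusted p under 0.05. Prkce, a protein kinase C, had 0.49 and its relative Prkca 0.36, although 1 of the 2 other probe sets of Prkca was higher and passed (0.948, adjusted p = 0.00154).

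Genes that guide T cells into and out of lymph nodes were mostly higher. Of 10 measured members, 5 rose and none fell (2 were lower at an unadjusted p under 0.05), with a median change of 0.70 against -0.0161 over all genes. The study displayed several of these genes from these arrays, so the count is not independent evidence of their direction. Klf2, the transcription factor that drives homing receptors, had log2 signals of 7.14, 7.50 and 6.75 in IL-2 alone and 9.74, 9.88 and 9.52 with AktI. It rose 5.98-fold (log2 fold change 2.58 ± 0.0889 SE, adjusted p = 0.000223), and the lowest AktI value stood well above the highest IL-2 value. Ccr7, the chemokine receptor for entry into lymph nodes, had 8.95, 8.85 and 8.71 in IL-2 alone and 10.50, 10.61 and 10.26 with AktI and rose 3.07-fold (log2 fold change 1.62 ± 0.0749 SE, adjusted p = 0.000409). S1pr1, the sphingosine-1-phosphate receptor that lets T cells leave them again, had 6.87, 7.08 and 6.60 in IL-2 alone and 8.26, 8.36 and 8.06 with AktI (log2 fold change 1.38 ± 0.0703 SE, adjusted p = 0.000605). The groups were apart in both genes. Itga4, the α4 integrin, rose by 1.57 and Cxcr4, the receptor of CXCL12, by 0.88. Of the members that did not pass, Itgb7, the partner of α4 in gut homing, had 0.52, and Itgb2, the common chain of the β2 integrins, had -0.50.

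Of 25 genes of Foxo factors and quiescence, 8 rose and none fell (4 lower at an unadjusted p under 0.05), with a median of 0.241. Members of this list were also displayed by the study. Il7r, the α chain of the IL-7 receptor, had 7.93, 7.81 and 8.09 in IL-2 alone and 9.04, 8.90 and 9.22 with AktI (log2 fold change 1.11 ± 0.0643 SE, adjusted p = 0.000824), with no overlap of the groups. Bcl2l11, the pro-apoptotic protein Bim, had 10.09, 9.95 and 9.74 in IL-2 alone and 11.50, 11.34 and 11.28 with AktI (log2 fold change 1.45 ± 0.0692 SE, adjusted p = 0.00046). It was the 1 gene that passed among 17 of the Bcl2 family and the inhibitors of apoptosis, where Bcl2l1, an inhibitor of apoptosis, had -0.48, below 1.5-fold, although another of its probe sets passed. Sesn1, a stress-induced inhibitor of mTORC1 signalling, rose by 0.79 (adjusted p = 0.00392). Btg2, an antiproliferative gene, rose by 0.62 and the cell cycle inhibitor Cdkn1b, p27, by 0.61. The calls of Btg2 ended without mouse 2 (0.0783) or mouse 3 (0.0537) and those of Cdkn1b without mouse 1 (0.0628) or mouse 2 (0.0509), and as the mean of its probe sets Cdkn1b had 0.533, under 1.5-fold. Without mice 1, 2 and 3 the list held 6, 7 and 6 genes that rose.

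Promoters of the genes that passed were searched for the core letters of the Foxo binding motif, GTAAACA, on both strands. RefSeq promoters of the assembly GRCm38.p6, from 250 bases before to 50 bases after a start, were matched by gene identifier for 233 of the 285 genes higher and 147 of the 202 lower. The letters occurred in 12 of 320 promoters of higher genes (3.75%), in 4 of 191 promoters of lower genes (2.09%), and in 2.97% of the 18009 promoters of all genes measured. For comparison, the E-box CACGTG occurred in 7.81%, 6.81% and 8.74%, and the sterol element TCACNCCAC in 1.56%, 0% and 1.21%. Each motif was counted on its own, also where it shared letters with another. The 4 genes with the largest change among those that hold the Foxo letters are shown, with the motif in capitals and the strand of the gene, so that its distance from the start can be read. They are Selenop, a secreted selenium carrier (log2 fold change 1.59), Bcl2l11, Dapl1, which resembles a death-associated protein (1.38), and Ltb, lymphotoxin β (1.12). A match is a description of the letters and not a binding site.

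Selenop, chr15:3270727-3271026, + strand, motif at -24: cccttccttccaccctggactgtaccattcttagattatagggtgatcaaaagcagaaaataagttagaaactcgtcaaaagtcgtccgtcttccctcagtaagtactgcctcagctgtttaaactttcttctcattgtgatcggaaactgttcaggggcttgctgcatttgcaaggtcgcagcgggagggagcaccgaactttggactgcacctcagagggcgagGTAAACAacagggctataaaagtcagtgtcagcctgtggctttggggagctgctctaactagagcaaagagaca

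Bcl2l11, chr2:128125788-128126087, + strand, motif at -227: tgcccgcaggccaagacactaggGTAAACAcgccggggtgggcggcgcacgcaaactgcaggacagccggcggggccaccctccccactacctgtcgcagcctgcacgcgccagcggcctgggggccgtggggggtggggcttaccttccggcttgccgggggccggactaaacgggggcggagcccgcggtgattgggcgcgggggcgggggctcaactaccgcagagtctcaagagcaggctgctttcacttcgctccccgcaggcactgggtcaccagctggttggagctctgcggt

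Dapl1, chr2:59484403-59484702, + strand, motif at -164: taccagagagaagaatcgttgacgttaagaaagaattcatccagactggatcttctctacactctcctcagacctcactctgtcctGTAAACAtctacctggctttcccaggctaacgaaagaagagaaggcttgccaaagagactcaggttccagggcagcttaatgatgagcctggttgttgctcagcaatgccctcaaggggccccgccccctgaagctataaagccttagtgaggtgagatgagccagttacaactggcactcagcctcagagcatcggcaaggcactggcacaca

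Ltb, chr17:35194257-35194556, + strand, motif at -124: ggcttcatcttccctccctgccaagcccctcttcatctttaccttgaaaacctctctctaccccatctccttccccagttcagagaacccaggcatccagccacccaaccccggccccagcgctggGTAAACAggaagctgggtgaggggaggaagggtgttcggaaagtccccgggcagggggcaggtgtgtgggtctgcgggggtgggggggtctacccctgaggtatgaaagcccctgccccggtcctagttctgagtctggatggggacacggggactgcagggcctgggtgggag

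Selenop has 3 promoters in the table and Bcl2l11 has 2, of which 1 holds the letters in each. The motif lay at different distances from the start in the 4 genes. The exact letters were not in this window of Klf2 and Il7r, which have 1 promoter each in the table.

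**Figure D2:**
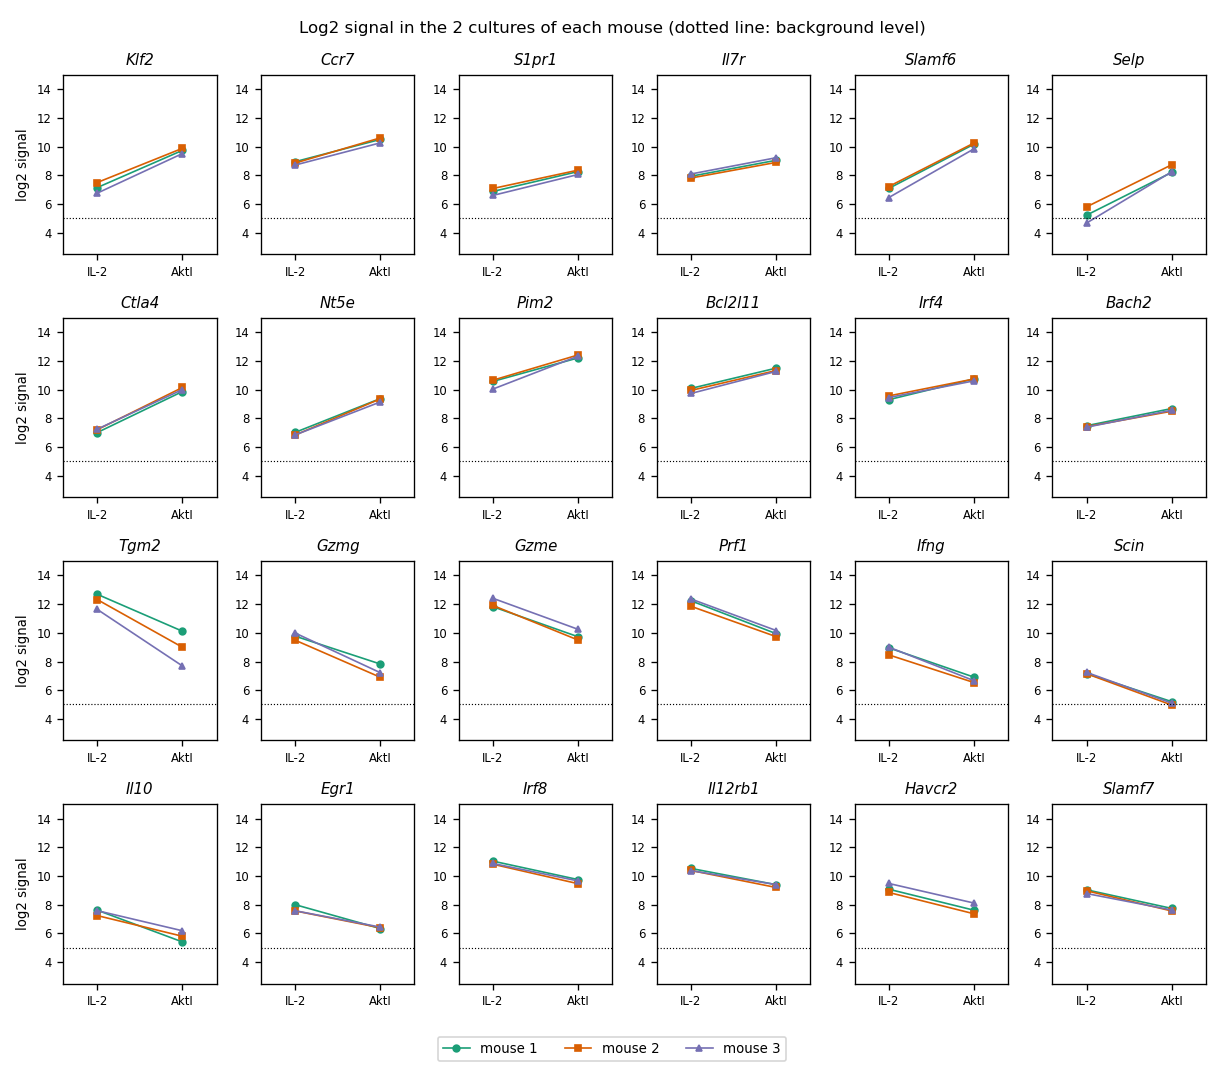
Log2 signal (y axis) in the IL-2 and AktI cultures (x axis) of 24 genes that passed, with 1 line per mouse. The upper rows are genes that rose, such as Klf2 and Slamf6, and the lower rows genes that fell, such as Tgm2 and Gzmg, and all lines of a panel run the same way.

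By number and not by share, the cytolytic granule was the list, of the 54 described here, with the most genes that fell. The study displayed several of these genes as lower from these arrays, and the lists were chosen with earlier results known. The count and the rank are therefore not independent evidence of their direction. Of 24 measured genes, 8 fell and 1 rose, with a median of -0.365, and 21 had a lower mean with AktI. Prf1, the pore-forming protein perforin, had log2 signals of 12.24, 11.85 and 12.36 in IL-2 alone and 9.94, 9.74 and 10.16 with AktI. It fell 4.61-fold (log2 fold change -2.20 ± 0.0702 SE, adjusted p = 0.000162), with the groups far apart. Its other probe set, with values near the background level, had 0.129 and did not pass. The granzymes of the cluster that holds Gzmd, Gzme, Gzmf and Gzmg fell as well. Gzmd had 12.65, 12.85 and 13.09 in IL-2 alone and 10.74, 10.63 and 11.21 with AktI (log2 fold change -2.0 ± 0.0901 SE, adjusted p = 0.000404), and Gzmg had 9.77, 9.49 and 9.99 in IL-2 alone and 7.83, 6.90 and 7.22 with AktI (log2 fold change -2.43 ± 0.154 SE, adjusted p = 0.00109). Gzme changed by -2.22 and Gzmf by -1.86. These granzymes are close in sequence, and how far their probe sets tell them apart was not tested. Gzmb, the granzyme most used as a marker of CTL, had 14.65, 14.64 and 14.68 in IL-2 alone and 14.30, 14.26 and 14.37 with AktI (log2 fold change -0.34 ± 0.065 SE, adjusted p = 0.0406). Its groups did not overlap, and the difference was under 1.5-fold. Gzma had -0.43 and Gzmc -0.39, and neither passed. Fasl, the ligand of the death receptor Fas, fell by 1.73-fold and Serpinb9, the inhibitor that shields CTL from their own granzyme B, by 1.92-fold. Gzmk rose by 0.64 (adjusted p = 0.00579), but did not pass without mouse 1 (0.0609). Gzmm changed by -0.62 (adjusted p = 0.0102), with no call without mouse 1 (0.084) or mouse 3, where it was -0.552.

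Of 25 secreted cytokines and TNF ligands, 3 fell and 1 rose. Ifng, interferon-γ, had 8.96, 8.47 and 9.01 in IL-2 alone and 6.91, 6.54 and 6.67 with AktI and fell 4.3-fold (log2 fold change -2.10 ± 0.0938 SE, adjusted p = 0.000398). Il10 had 7.62, 7.24 and 7.58 in IL-2 alone and 5.40, 5.80 and 6.18 with AktI (log2 fold change -1.69 ± 0.162 SE, adjusted p = 0.00388). Il24 had 7.79, 7.47 and 8.11 in IL-2 alone and 6.03, 6.08 and 6.32 with AktI (log2 fold change -1.65 ± 0.0958 SE, adjusted p = 0.000834). All IL-2 values of these 3 cytokines were above all AktI values. Ltb, a TNF family ligand of lymphoid tissue organization, had 12.12, 11.89 and 11.61 in IL-2 alone and 12.95, 13.07 and 12.95 with AktI (log2 fold change 1.12 ± 0.106 SE, adjusted p = 0.00366). The chemokines Ccl3 and Ccl4, which draw T cells and macrophages, also fell (2 of 10 measured chemokines, none rose and 2 were higher at an unadjusted p under 0.05). Ccl3 changed by -1.17, to a mean below background, and Ccl4 by -0.85 (adjusted p = 0.0134; 0.0563 without mouse 2). Ccl5 had 9.97, 9.60 and 9.15 in IL-2 alone and 10.23, 10.27 and 10.30 with AktI (log2 fold change 0.69 ± 0.16 SE, adjusted p = 0.0739) and did not pass.

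Of 14 transcription factors of naive and memory T cells, 3 rose and none fell (3 lower at an unadjusted p under 0.05). Beside Klf2 these were Bach2, a repressor of effector genes, and Lef1, an HMG-box factor of naive T cells. Bach2 had 7.49, 7.43 and 7.39 in IL-2 alone and 8.69, 8.50 and 8.57 with AktI (log2 fold change 1.15 ± 0.0676 SE, adjusted p = 0.000852). Another probe set of Bach2 rose by 1.14, and a further one, above background, had 0.126 and did not pass. Lef1 had 9.27, 9.22 and 9.01 in IL-2 alone and 10.09, 10.18 and 9.93 with AktI (log2 fold change 0.90 ± 0.068 SE, adjusted p = 0.00169). The groups did not overlap in either gene. Of 21 factors of effector cells, 4 fell and 1 rose. Egr1, an immediate early gene of antigen receptor signals, had 8.0, 7.57 and 7.58 in IL-2 alone and 6.33, 6.39 and 6.44 with AktI (log2 fold change -1.33 ± 0.115 SE, adjusted p = 0.00269). Irf8 had 11.03, 10.82 and 10.87 in IL-2 alone and 9.75, 9.46 and 9.65 with AktI (log2 fold change -1.29 ± 0.068 SE, adjusted p = 0.000634). Irf4, its relative, went the other way with 9.30, 9.57 and 9.45 in IL-2 alone and 10.75, 10.75 and 10.62 with AktI (log2 fold change 1.26 ± 0.0821 SE, adjusted p = 0.00118). Nr4a3, an orphan nuclear receptor, changed by -1.17, although the mean of its probe sets was -0.366. Of the others, 1 below background in all arrays had 0.16 and 1 above it had -0.0905, and neither passed. Prdm1, Blimp-1, the factor of terminal effector differentiation, had 7.22, 7.37 and 7.20 in IL-2 alone and 6.57, 6.57 and 6.54 with AktI (log2 fold change -0.70 ± 0.07 SE, adjusted p = 0.00444). Tbx21, which encodes T-bet, had 0.04 (adjusted p = 0.796), Eomes -0.44 and Id2 -0.39. None of these 3 passed, although another probe set of Id2 did.

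Genes of inhibitory and costimulatory receptors, listed together with the ligand PD-L2, moved in both directions. Of 17 measured genes of the list, 4 were higher and 4 lower, the latter including that ligand. Ctla4, an inhibitory receptor for B7 ligands, had log2 signals of 7.01, 7.21 and 7.25 in IL-2 alone and 9.87, 10.15 and 10.01 with AktI. It rose 7.23-fold (log2 fold change 2.85 ± 0.0705 SE, adjusted p = 9.14e-05), with a gap between the groups larger than the spread within either. Btla had 7.23, 7.60 and 6.45 in IL-2 alone and 8.22, 8.42 and 7.65 with AktI (log2 fold change 1.0 ± 0.0879 SE, adjusted p = 0.00277). Mouse 3 was lowest in both cultures for Btla, and without the pairing the gene did not pass (adjusted p = 0.0948). Lag3 rose by 0.74 (adjusted p = 0.00963; 0.0709 without mouse 2). Cd7 rose by 0.73 with all mice, but did not pass with any 1 of them left out (adjusted p = 0.0555 to 0.0978). Without mouse 2, 2 genes of the list rose. Havcr2, TIM-3, had 9.08, 8.85 and 9.48 in IL-2 alone and 7.61, 7.36 and 8.11 with AktI (log2 fold change -1.44 ± 0.0671 SE, adjusted p = 0.000421). Cd160 changed by -0.79 and Pdcd1lg2, PD-L2, by -0.76. Both TIM-3 and PD-1 are known from chronically stimulated T cells. Pdcd1, PD-1, had 6.58, 6.53 and 7.20 in IL-2 alone and 5.98, 5.33 and 6.48 with AktI (log2 fold change -0.85 ± 0.121 SE, adjusted p = 0.016). Mouse 3 had the highest value of Pdcd1 in both cultures, and its call ended without the pairing (0.143), without mouse 1 (0.0538) and without mouse 3 (0.0536).

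Of 9 genes listed as SLAM family members and T cell adaptors, 1 rose and 3 fell. Of the 3, Sh2d2a is an adaptor and not a member of the SLAM family. Slamf6, Ly108, an adhesion and signalling receptor of T cells, had 7.08, 7.21 and 6.45 in IL-2 alone and 10.16, 10.25 and 9.84 with AktI and rose 9.0-fold (log2 fold change 3.17 ± 0.0905 SE, adjusted p = 0.000112). Its other probe sets rose by 1.52 and 2.55. Slamf7, CRACC, had 9.03, 8.96 and 8.77 in IL-2 alone and 7.74, 7.56 and 7.63 with AktI (log2 fold change -1.28 ± 0.0767 SE, adjusted p = 0.000905). Cd244a, 2B4, changed by -0.91 (adjusted p = 0.00852, and 0.0595 without mouse 1). Its other probe set had -1.30 and passed (adjusted p = 0.00061). Sh2d2a, the adaptor TSAd, changed by -0.60, but did not pass without mouse 1 (0.0771) or mouse 2 (0.0516). Of 14 TNF receptors, Cd27, the costimulatory receptor of less differentiated CD8 T cells, rose with 8.36, 8.32 and 7.68 in IL-2 alone and 9.12, 9.02 and 8.67 with AktI (log2 fold change 0.82 ± 0.0818 SE, adjusted p = 0.00449). Tnfrsf9, 4-1BB, changed by -0.69 and Tnfrsf8, CD30, by -1.07, and neither passed without mouse 1 (adjusted p = 0.0512 and 0.0645). The mean of the probe sets of Tnfrsf9 was -0.504, under 1.5-fold.

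Among receptors of migration, 5 of 22 rose and none fell (4 lower at an unadjusted p under 0.05). Beside Ccr7, S1pr1 and Cxcr4 these were Cxcr3, the receptor of interferon-induced chemokines, and S1pr4. Cxcr3 had 9.75, 9.40 and 9.34 in IL-2 alone and 10.84, 10.69 and 10.57 with AktI (log2 fold change 1.20 ± 0.0714 SE, adjusted p = 0.000905). S1pr4 had 9.53, 9.55 and 9.40 in IL-2 alone and 10.43, 10.39 and 10.25 with AktI (log2 fold change 0.86 ± 0.065 SE, adjusted p = 0.00169). In both genes the 3 AktI values were the highest of the 6. Of 25 integrins and adhesion molecules, 6 rose and 2 fell. Selp, P-selectin, had 5.22, 5.80 and 4.68 in IL-2 alone and 8.21, 8.74 and 8.25 with AktI and rose 8.97-fold (log2 fold change 3.16 ± 0.133 SE, adjusted p = 0.000361). Its IL-2 values lay around the background level, and those with AktI were all above 8. Itga4 had 5.92, 5.96 and 5.66 in IL-2 alone and 7.37, 7.57 and 7.29 with AktI (log2 fold change 1.57 ± 0.0713 SE, adjusted p = 0.000404). Of its 5 probe sets, 1 that was below background in all arrays did not move (-0.083). Icam2, Itga6 and Itgb3 rose by 0.95, 0.91 and 0.84, and Cd9 by 0.73. Alcam, a ligand of CD6, and Itgav, the αv integrin, changed by -1.09 and -0.89, and by -0.551 and -0.525 as means of all their probe sets, under 1.5-fold.

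Of 26 cytokine receptors, 3 rose and 1 fell. Il12rb1, the shared chain of the IL-12 and IL-23 receptors, had 10.52, 10.38 and 10.37 in IL-2 alone and 9.39, 9.20 and 9.40 with AktI (log2 fold change -1.10 ± 0.0736 SE, adjusted p = 0.00121). Il6st, gp130, had 6.94, 7.12 and 6.75 in IL-2 alone and 7.68, 7.76 and 7.49 with AktI (log2 fold change 0.70 ± 0.0666 SE, adjusted p = 0.00363). Il18r1 rose by 0.74 (adjusted p = 0.00703; 0.0566 without mouse 2). Il2rb, a chain of the IL-2 receptor itself, had 11.48, 11.20 and 11.42 in IL-2 alone and 11.05, 11.13 and 11.04 with AktI (log2 fold change -0.29 ± 0.09 SE, adjusted p = 0.159) and did not pass. Of 18 genes of the Jak, STAT, SOCS and Pim families, 4 rose and none fell (5 lower at an unadjusted p under 0.05). Pim2, a survival kinase whose substrates overlap those of Akt, had 10.58, 10.66 and 10.04 in IL-2 alone and 12.22, 12.42 and 12.34 with AktI (log2 fold change 1.90 ± 0.131 SE, adjusted p = 0.00132). Socs2 and Socs3, which damp cytokine signals, rose by 0.95 and 0.84, and the mean of the 6 probe sets of Socs2 was 0.578, under 1.5-fold. Stat4, the transducer of IL-12, had 10.13, 9.94 and 9.75 in IL-2 alone and 10.90, 10.77 and 10.77 with AktI (log2 fold change 0.87 ± 0.0771 SE, adjusted p = 0.00285). The AktI and IL-2 values of these 4 genes did not overlap.

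Of 34 genes of T cell receptor signalling, 1 rose and none fell (11 and 6 at an unadjusted p under 0.05). That gene was Dgka, the diacylglycerol kinase that damps Ras activation, with 10.0, 9.82 and 9.76 in IL-2 alone and 11.38, 11.29 and 11.22 with AktI (log2 fold change 1.44 ± 0.0658 SE, adjusted p = 0.000404). Of 26 genes of MAP kinase feedback and immediate early response, 3 fell and 1 rose. Gadd45g, a stress sensor, had 11.93, 11.73 and 11.85 in IL-2 alone and 10.30, 10.33 and 10.67 with AktI (log2 fold change -1.40 ± 0.0982 SE, adjusted p = 0.0014). Fosl2, an AP-1 subunit, had 9.18, 9.10 and 9.37 in IL-2 alone and 8.01, 8.13 and 8.38 with AktI (log2 fold change -1.04 ± 0.0731 SE, adjusted p = 0.00139). The other probe set of Fosl2, above background, had -0.275 and did not pass. Dusp1, a MAP kinase phosphatase, changed by -0.62, and did not pass without mouse 1 (0.0791) or mouse 2 (0.0595). Dusp7, a phosphatase of ERK, rose by 0.86 (adjusted p = 0.00528). Of 11 RGS genes, which switch off G proteins, Rgs10 rose with 8.56, 8.63 and 8.67 in IL-2 alone and 9.61, 9.78 and 9.81 with AktI (log2 fold change 1.12 ± 0.0665 SE, adjusted p = 0.000905). Rgs16 changed by -0.62, but did not pass without mouse 1 (0.0852) or mouse 2 (0.0653). Its 2 other probe sets fell by 1.11 and 0.883, and the mean of all was -0.872. Of 14 genes of the NF-κB pathway Nfkbia, its inhibitor, rose by 0.68 (adjusted p = 0.0218), and without any 1 mouse it did not pass (0.055 to 0.1). Of its 5 probe sets, 3 others also passed, with 0.791, 0.851 and 0.898, and the mean of all was 0.733. The remaining probe set had 0.44 and did not pass.

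The type I interferon response was lower in most of its genes, by amounts that differed from mouse to mouse. Of 32 measured members, 27 had a lower mean with AktI and the median change was -0.516, while 7 fell and 1 rose. Usp18, which removes ISG15 from proteins, had log2 signals of 10.99, 10.68 and 9.97 in IL-2 alone and 9.07, 9.32 and 8.76 with AktI (log2 fold change -1.50 ± 0.139 SE, adjusted p = 0.00336). Isg20, an exonuclease, had 11.39, 11.08 and 11.15 in IL-2 alone and 9.93, 9.70 and 10.02 with AktI (log2 fold change -1.33 ± 0.0864 SE, adjusted p = 0.00118). Zbp1, a sensor of Z-form nucleic acids, had 10.52, 10.34 and 10.07 in IL-2 alone and 9.60, 9.45 and 9.26 with AktI (log2 fold change -0.87 ± 0.0666 SE, adjusted p = 0.00176). In these 3 genes all AktI values were below all IL-2 values. Mx1, an antiviral GTPase, had 8.77, 8.77 and 8.25 in IL-2 alone and 7.27, 7.36 and 7.50 with AktI (log2 fold change -1.22 ± 0.147 SE, adjusted p = 0.00886), and it did not pass without mouse 1 (0.0676) or mouse 2 (0.0677). Iigp1 changed by -0.70, Irf7 by -0.65 and Ifitm3 by -0.63. Irf7 and Ifitm3 did not pass without mouse 1 (0.139 and 0.0676) or mouse 2 (0.147 and 0.053), and Irf7 not without the pairing (0.0524). Gbp2, a guanylate binding protein that interferon-γ also induces, rose by 0.61 with overlapping groups, but did not pass with any 1 mouse left out (0.0553 to 0.0992) or without the pairing (0.165).

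In 25 of the 32 genes the difference within the pair was lowest in mouse 1, and in 25 it was highest in mouse 3. The median difference was -0.70 in mouse 1, -0.539 in mouse 2 and -0.212 in mouse 3. Whether the mice differed in this response was not tested. Within the pairs, Oasl2, an antiviral sensor relative, differed by -2.19, -1.25 and -0.13 and Rsad2, viperin, by -1.61, -1.09 and -0.24, and neither passed (adjusted p = 0.133 and 0.0811). Ifit1 differed by -1.22, -0.73 and 0.24, with a different sign in mouse 3. Without mouse 3, 16 of the 32 genes were lower, and without mouse 1 or mouse 2, 4 were. All 13 measured genes of MHC class I presentation had a lower mean, from -0.239 for Psmb10, a subunit of the immunoproteasome, to -0.00161 for Tapbp. None passed, and 4 were lower at an unadjusted p under 0.05.

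**Figure D3:**
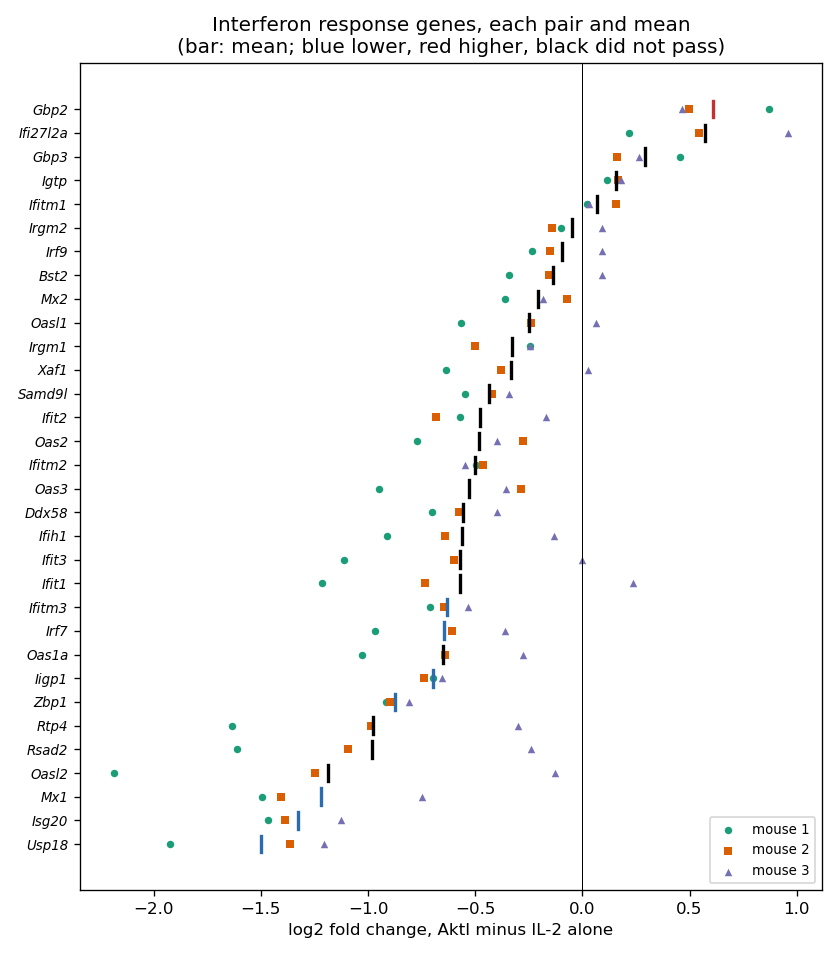
Log2 fold change with AktI (x axis) of 32 interferon response genes in each of the 3 pairs (points) and as the mean (bars, blue lower, red higher, black not passed). The point of mouse 1 is the lowest in 25 genes and that of mouse 3 the highest in 25, as for Oasl2. Usp18, Isg20 and Zbp1 are below 0 in all 3 pairs.

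Few transcripts of growth and metabolism passed. Of 20 genes of glycolysis and glucose uptake none passed in limma, although 19 had a lower mean, with a median of -0.179 and at an unadjusted p under 0.05 there were 10 lower and 0 higher. Hk2, the hexokinase of activated T cells, had 10.06, 9.91 and 9.90 in IL-2 alone and 9.47, 9.31 and 9.52 with AktI (log2 fold change -0.53 ± 0.0758 SE, adjusted p = 0.0162), with the groups apart and the change under 1.5-fold. Without mouse 3 it was -0.598 and passed. For Pdk1, a kinase that holds back pyruvate oxidation, a probe set other than the brightest passed. Slc2a1, a glucose transporter, had -0.18 (adjusted p = 0.244). Slc16a3, a lactate exporter, had -0.47, and it passed without mouse 2 (-0.589). Of 38 genes of the respiratory chain, none passed and none had an unadjusted p under 0.05, with changes from -0.13 to 0.149.

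Of 24 genes of DNA replication and 19 of mitosis none passed (1 higher and 2 lower, and 1 higher and 3 lower, at an unadjusted p under 0.05). Tk1, thymidine kinase, had 10.74, 10.76 and 10.81 in IL-2 alone and 10.37, 10.41 and 10.36 with AktI (log2 fold change -0.39 ± 0.0659 SE, adjusted p = 0.0272), under 1.5-fold. Of 34 genes of Myc and ribosome biogenesis, Myc had 0.54 (adjusted p = 0.014) and Mxd1, a Myc antagonist, changed by -0.79 (adjusted p = 0.00708; 0.0606 without mouse 1). Of 16 cyclins and CDK inhibitors, Cdkn1b rose and Cdkn1a, p21, had 11.05, 11.06 and 11.23 in IL-2 alone and 10.23, 10.45 and 10.62 with AktI (log2 fold change -0.68 ± 0.0752 SE, adjusted p = 0.00653), which did not pass without mouse 1 (0.0567) or as the mean of its probe sets (-0.574, under 1.5-fold). Of 10 targets of p53, Trp53inp1 rose by 0.62, but did not pass without mouse 1 (0.0538) or as the mean of its probe sets (0.531, under 1.5-fold), and Perp changed by -0.75 (adjusted p = 0.0349), but did not pass with any 1 mouse left out (0.0549 to 0.117). None of the 15 genes of nucleotide synthesis, 7 of polyamines, 13 heat shock proteins, 17 of autophagy and 8 of the aryl hydrocarbon receptor passed. At an unadjusted p under 0.05 these lists held 2, 1, 0, 1 and 0 genes higher and 3, 1, 2, 3 and 3 lower. In the unfolded protein response 0 of 20 passed, and without adjustment 9 were lower and 0 higher (median -0.141). Edem1, which sorts misfolded glycoproteins for disposal, had -0.51.

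Of 18 genes of cholesterol synthesis 0 passed, and 2 were higher and 2 lower at an unadjusted p under 0.05. Of genes of sterol uptake and export, Abcg1, a cholesterol exporter, rose with 7.88, 8.10 and 7.80 in IL-2 alone and 8.69, 8.98 and 8.94 with AktI (log2 fold change 0.95 ± 0.0843 SE, adjusted p = 0.0029). Of 19 genes that make fatty acids, the elongases Elovl6 and Elovl7 rose. Elovl6, which lengthens palmitate, had 8.60, 8.65 and 8.46 in IL-2 alone and 9.57, 9.63 and 9.64 with AktI (log2 fold change 1.05 ± 0.0743 SE, adjusted p = 0.00144). Elovl7 rose by 0.91, and by 0.499 as the mean of its 6 probe sets, under 1.5-fold. None of 24 genes of fatty acid breakdown passed (5 higher and 1 lower at an unadjusted p under 0.05), where Cpt1a, which admits fatty acids to mitochondria, had 0.45. Of the carriers of amino acids and iron, Slc16a10, a carrier of aromatic amino acids, changed by -0.70, but did not pass without mouse 1 (0.0791) or mouse 2 (0.0532), or as the mean of its probe sets (-0.369, under 1.5-fold). Of 19 genes that ATF4 drives or that make amino acids, Trib3, a pseudokinase, rose by 0.72 (adjusted p = 0.0407), and with any 1 mouse left out it did not pass (0.0677 to 0.17). Srxn1, a target of NRF2, changed by -0.60 (adjusted p = 0.00749; 0.074 without mouse 1), and the mean of its probe sets was -0.372, under 1.5-fold.

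**Figure D4:**
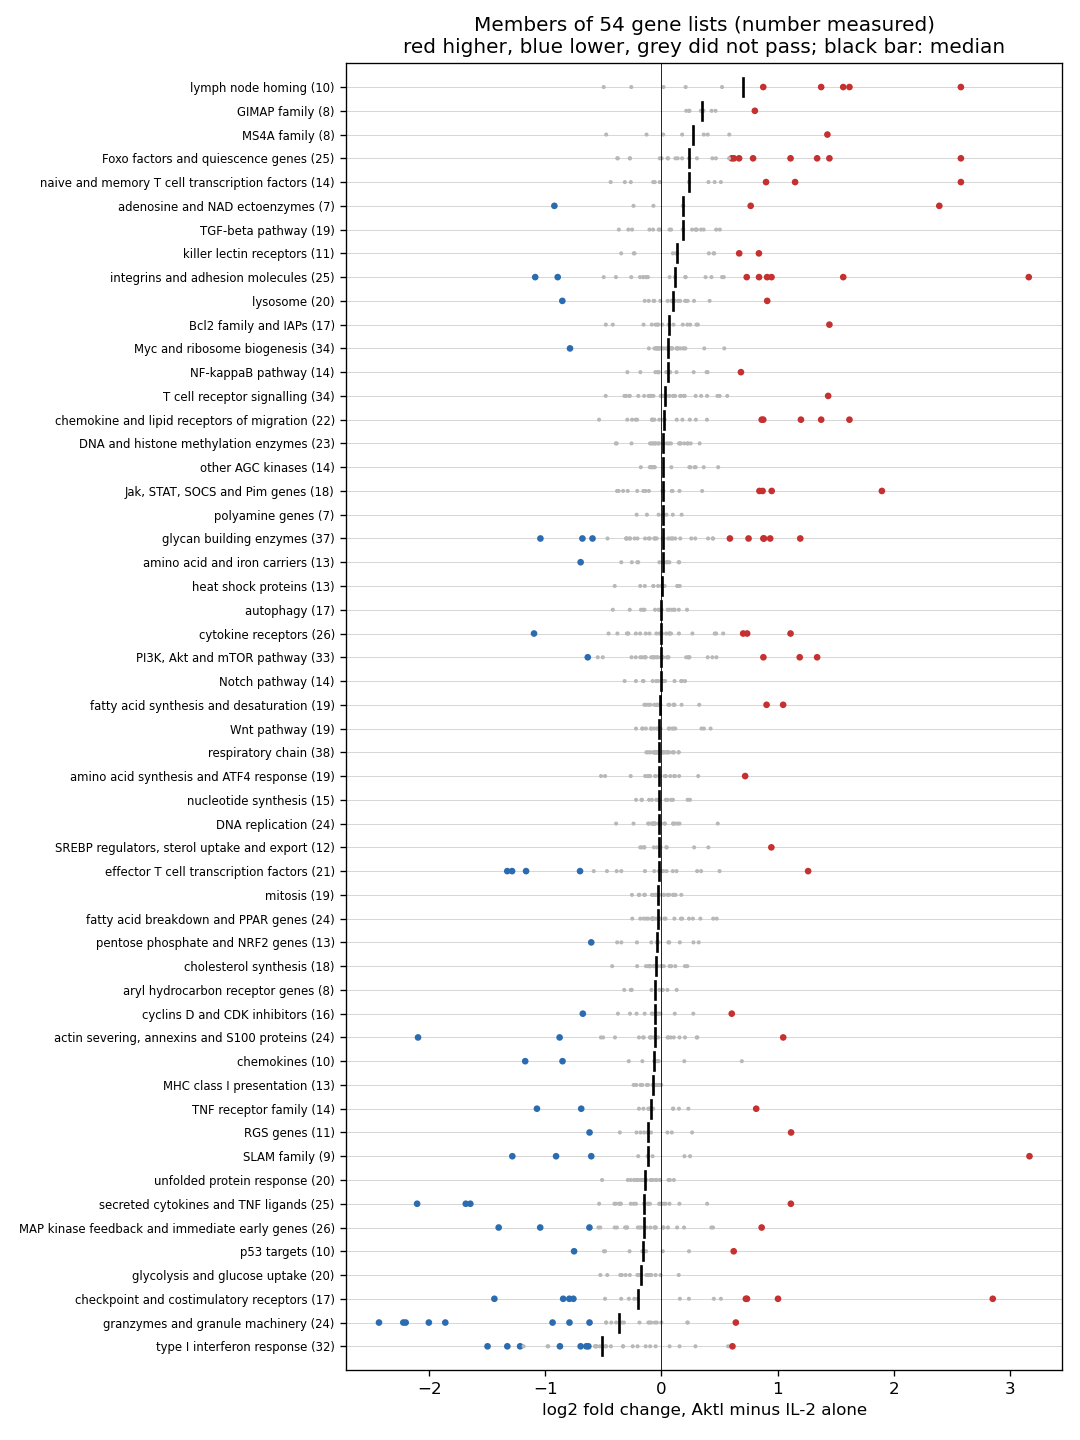
Log2 fold change with AktI (x axis) of the measured members of 54 gene lists (rows, with the number measured), sorted by the median (black bar). Red points rose, blue points fell and grey points did not pass. Lymph node homing stands at the top with a median of 0.70 and the type I interferon response at the bottom with -0.516.

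Enzymes of the cell surface that handle adenosine and NAD moved in both directions. Nt5e, CD73, which makes adenosine from AMP, had log2 signals of 7.02, 6.84 and 6.85 in IL-2 alone and 9.38, 9.36 and 9.15 with AktI and rose 5.26-fold (log2 fold change 2.39 ± 0.074 SE, adjusted p = 0.000162). Dpp4, CD26, which binds adenosine deaminase, rose by 0.77. Entpd1, CD39, which acts upstream of CD73, had 9.70, 9.44 and 9.68 in IL-2 alone and 8.71, 8.54 and 8.80 with AktI (log2 fold change -0.92 ± 0.0664 SE, adjusted p = 0.0015). The groups did not overlap in these 3 genes. Of 37 enzymes that build glycans, 6 rose and 3 fell. B3gnt5, which starts lacto-series glycolipids, had 6.69, 6.83 and 6.64 in IL-2 alone and 7.93, 8.0 and 7.82 with AktI (log2 fold change 1.20 ± 0.0653 SE, adjusted p = 0.000677). Man1a, St8sia1, B4galt4 and St8sia4 rose by 0.94, 0.88, 0.88 and 0.75. Mgat5, which branches N-glycans, had 9.21, 8.99 and 9.10 in IL-2 alone and 7.99, 8.10 and 8.07 with AktI (log2 fold change -1.04 ± 0.083 SE, adjusted p = 0.00208). The mean over all probe sets was under 1.5-fold for St8sia1 (0.33), St8sia4 (0.549), St6gal1 (0.415), Galnt3 (-0.306) and B4galnt2 (-0.326). With the brightest probe set, St6gal1 did not pass without mouse 2 (0.104), mouse 3 (0.0779) or the pairing (0.183), Galnt3 not without mouse 1 (0.154) or mouse 2 (0.133), and B4galnt2 not without mouse 1 (0.0807).

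Of 8 genes of the GIMAP family, small GTPases of lymphocyte survival, all had a higher mean (median 0.351) and an unadjusted p under 0.05, and Gimap3 rose with 10.88, 10.69 and 10.65 in IL-2 alone and 11.61, 11.53 and 11.51 with AktI (log2 fold change 0.80 ± 0.0683 SE, adjusted p = 0.00253). Of 8 MS4A genes, Ms4a6c rose with 7.74, 7.75 and 7.54 in IL-2 alone and 9.26, 9.05 and 9.01 with AktI (log2 fold change 1.43 ± 0.0744 SE, adjusted p = 0.000634). The other probe set of Ms4a6c, above background, had 0.172 and did not pass. Scin, scinderin, which severs actin filaments, had 7.16, 7.15 and 7.24 in IL-2 alone and 5.20, 4.97 and 5.10 with AktI and fell 4.28-fold (log2 fold change -2.10 ± 0.0754 SE, adjusted p = 0.000236). Gsn, gelsolin of the same family, had 9.34, 8.79 and 8.84 in IL-2 alone and 8.16, 8.04 and 8.14 with AktI (log2 fold change -0.88 ± 0.106 SE, adjusted p = 0.00888). Emp1, a membrane protein, rose by 1.05, and by 0.583 as the mean of its probe sets, just under 1.5-fold. Of lysosomal proteases, Ctsz rose by 0.91 and Ctsd, cathepsin D, had 12.33, 12.13 and 12.20 in IL-2 alone and 11.39, 11.36 and 11.35 with AktI (log2 fold change -0.85 ± 0.07 SE, adjusted p = 0.00226). Of 11 killer lectin receptors, Klra7 rose by 0.67 and Klrb1f by 0.84. Klra7 had overlapping groups and did not pass without the pairing (0.341) or without mouse 1 (0.0703), and the mean of its probe sets was 0.509, under 1.5-fold. Klrb1f, from a mean below background, did not pass without mouse 1 (0.0539). None of 19 genes of the Wnt pathway, 19 of the TGF-β pathway and 14 of the Notch pathway passed, nor any of 23 enzymes of DNA and histone methylation. At an unadjusted p under 0.05 these lists held 3, 10, 2 and 4 genes higher and 1, 2, 2 and 3 lower, with Smad7, an inhibitor of TGF-β signals, at 0.50. A probe set other than the brightest passed for Tle1 of the Wnt pathway (0.771, adjusted p = 0.0204, higher) and for Acvr2a of the TGF-β pathway.

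Over all lists, 115 of the 974 genes measured passed, and the other 372 genes that passed lie in none of them. Trib2, a pseudokinase, had the largest rise, with log2 signals of 6.60, 6.68 and 5.79 in IL-2 alone and 9.47, 9.81 and 9.43 with AktI. The rise was 9.27-fold (log2 fold change 3.21 ± 0.141 SE, adjusted p = 0.000384), with no overlap of the groups. Its other probe sets had 2.70 and 0.0228, the latter below background in all arrays. Aqp3, a water and glycerol channel, had 5.75, 5.90 and 6.04 in IL-2 alone and 8.65, 8.68 and 8.90 with AktI and rose 7.19-fold (log2 fold change 2.85 ± 0.0672 SE, adjusted p = 9.14e-05). Of its 4 probe sets, 1 that was below background in all arrays did not follow (-0.162). Another rose by 3.57, from values below background. Prss12, a serine protease, had 6.40, 6.30 and 6.31 in IL-2 alone and 8.88, 8.48 and 8.89 with AktI (log2 fold change 2.41 ± 0.093 SE, adjusted p = 0.000277). Slc14a1, a urea transporter, Ndnf, a secreted protein, and Nrn1, neuritin, rose by 2.22, 2.15 and 2.08. Nrn1 varied most among these, with AktI values of 7.37, 8.08 and 8.84. Ripor2, an inhibitor of RhoA, had 7.44, 7.36 and 7.12 in IL-2 alone and 9.32, 9.52 and 9.21 with AktI (log2 fold change 2.04 ± 0.081 SE, adjusted p = 0.000289). Pde2a, a phosphodiesterase of cyclic nucleotides, Aff3, a nuclear protein, and Sh3bp5, which binds JNK at mitochondria, rose by 1.80, 1.89 and 1.88. Another probe set of Pde2a rose by 2.60, and a further one, above background in all arrays, had 0.225 and did not pass. Gm11346 and Tmem71 rose by 2.36 and 1.87. Pygm, a glycogen phosphorylase, and Vegfc, a lymphatic growth factor, rose by 1.87 and 1.72 from means below background.

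Tgm2, transglutaminase 2, which crosslinks proteins, had the largest fall of all genes. Its log2 signal was 12.69, 12.32 and 11.64 in IL-2 alone and 10.11, 8.99 and 7.69 with AktI. The fall was 9.73-fold (log2 fold change -3.28 ± 0.233 SE, adjusted p = 0.00144), and the log2 difference was -2.58, -3.33 and -3.95 in mice 1 to 3. Mouse 3 was lowest and mouse 1 highest in both cultures, and the groups did not overlap. Of its 5 other probe sets, 4 passed in the same direction. Acvrl1, a receptor kinase of the TGF-β superfamily, had 8.13, 7.50 and 7.54 in IL-2 alone and 5.70, 6.08 and 6.02 with AktI (log2 fold change -1.79 ± 0.193 SE, adjusted p = 0.00587). Sema7a, a membrane semaphorin, had 8.32, 8.17 and 8.10 in IL-2 alone and 6.53, 6.40 and 6.64 with AktI (log2 fold change -1.67 ± 0.0885 SE, adjusted p = 0.000634). Klhl30 and Ppp2r2c, a regulatory subunit of the phosphatase PP2A, changed by -1.91 and -1.78. Myo10, an unconventional myosin, changed by -1.54. H2-Q10, an MHC class I gene close in sequence to others of its kind, changed by -1.55. Khdc1a and Bex6 changed by -2.11 and -1.84, to means below background.

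The cultures held the markers of CTL and some markers of other cells. All 9 measured CTL markers were above background, and Prf1 was the 1 that passed. Cd8a had 11.64, 11.34 and 11.46 in IL-2 alone and 11.59, 11.49 and 11.56 with AktI (log2 fold change 0.07 ± 0.0714 SE, adjusted p = 0.69), with overlapping groups, and Cd3e had a change of -0.09. Cd8b1 was 0.50 higher, under 1.5-fold. Of the markers of other cells, 6 of 11 of B cells, 4 of 12 of myeloid cells, 4 of 5 of plasma cells and 3 of 6 of mast cells and basophils were above background. Of B cell genes, Cd79a, Cd79b, Pax5, Blk, Cd22 and Bank1 were above background, with means in IL-2 alone from 5.09 for Blk to 6.53 for Bank1, and Ms4a1, Fcer2a, Ebf1, Blnk and Fcrla were below it. Fcer1g of the myeloid list, which NK cells and some T cells also express, had 9.44, 9.31 and 9.42 in IL-2 alone and 9.15, 9.01 and 9.02 with AktI (log2 fold change -0.33 ± 0.0669 SE, adjusted p = 0.0495), under 1.5-fold. Below background were Lyz2, Itgam, Adgre1 and Mpo of myeloid cells, Cpa3 and Fcer1a of mast cells, Foxp3 of regulatory T cells and Ncr1 of NK cells. Some markers of other cells nevertheless fell with AktI: Cd68 of 12 measured myeloid markers, Bank1 of 11 of B cells, Mcpt8 of 6 of mast cells and basophils, and Jchain and Prdm1 of 5 of plasma cells. Cd68 had 7.77, 7.12 and 7.04 in IL-2 alone and 6.01, 5.82 and 6.21 with AktI (log2 fold change -1.30 ± 0.164 SE, adjusted p = 0.0104). The log2 of the summed signal of the myeloid markers was 10.2 to 10.33 in IL-2 alone and 9.83 to 9.899 with AktI, that of the B cell markers 8.604 to 8.747 and 8.555 to 8.585, and that of 5 MHC class II genes 8.566 to 8.684 and 8.217 to 8.293. That of the mast cell and basophil markers was 7.374 to 7.802 and 7.16 to 7.303. Their part in the other results was not tested.

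Of 5 plasma cell markers, Jchain and Prdm1 fell, while Sdc1 had -0.12, Mzb1 -0.43 and Tnfrsf17, below background, 0.13. Jchain, the joining chain of secreted antibodies, had 6.88, 8.90 and 8.39 in IL-2 alone and 5.10, 7.12 and 6.85 with AktI (log2 fold change -1.70 ± 0.0775 SE, adjusted p = 0.000404). Mouse 1 was lowest in both cultures, and although the log2 difference was -1.78, -1.77 and -1.55 in mice 1 to 3, the groups overlapped and the gene did not pass without the pairing (adjusted p = 0.178). The plasma cell markers summed to 8.643 to 9.648 in IL-2 alone and 7.907 to 8.546 with AktI. Of 19 immunoglobulin genes measured, 9 were above background, of which 8 had a lower mean with AktI (median -0.571). Jchain, Igkv6-14, Igkv8-30 and Iglv1 fell. Ighm, the heavy chain of IgM, had 11.18, 12.32 and 11.75 in IL-2 alone and 10.57, 11.58 and 11.39 with AktI (log2 fold change -0.57 ± 0.0893 SE, adjusted p = 0.0213), under 1.5-fold. Igkv8-30 had 8.15, 9.94 and 9.24 in IL-2 alone and 6.24, 8.41 and 7.90 with AktI (log2 fold change -1.59 ± 0.115 SE, adjusted p = 0.0015), also with overlap and with no call without the pairing (0.186). Iglv1 changed by -1.22. Igkv6-14 changed by -0.96, with overlapping groups and to a mean below background. Antibody variable genes resemble each other, and how far the probe sets tell them apart was not tested.

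Apart from AktI, the mice themselves differed in 2 of 18193 genes (0.011%), Jchain and Erdr1. Jchain ranged over 2.02 between mouse means (adjusted p = 0.0225) and Erdr1, an erythroid differentiation regulator, over 1.75 (adjusted p = 0.0378). With trend and robust settings in limma 50 genes differed, both of these included. Without mouse 1 there were 0 genes, and without mouse 2 there was 1, which is neither Jchain nor Erdr1. Without mouse 3 there was 1, which is among these 2. Erdr1 had 9.68, 11.11 and 11.34 in IL-2 alone and 9.85, 11.21 and 11.70 with AktI (log2 fold change 0.21 ± 0.0777 SE, adjusted p = 0.229). Mouse 1 stood apart from mice 2 and 3 in both genes, and the change of Erdr1 with AktI was under 1.5-fold.

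**Figure D5:**
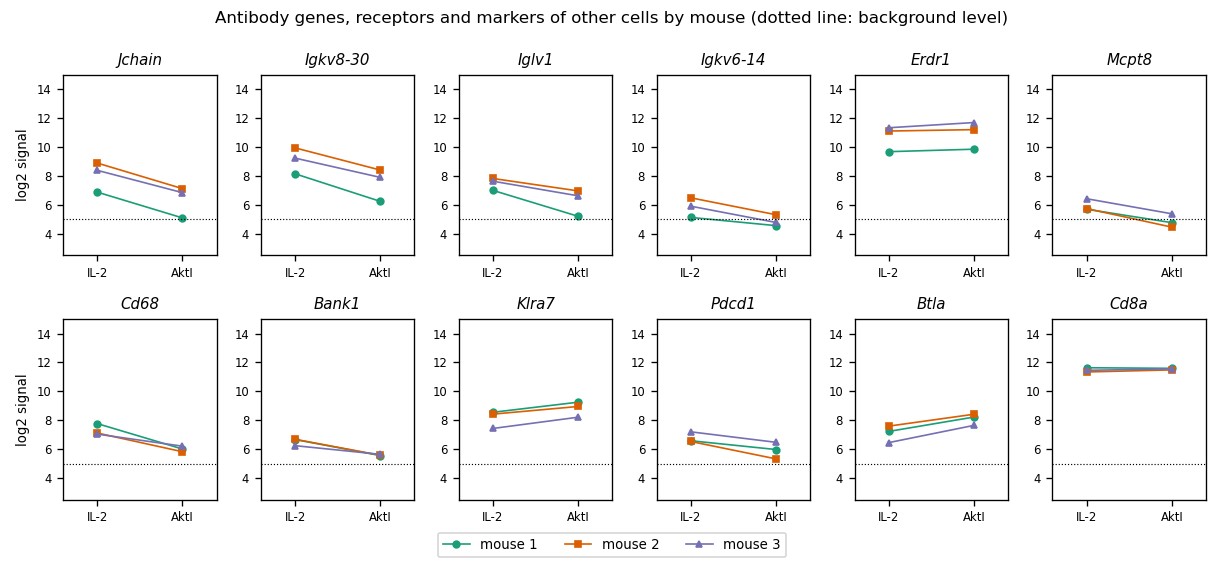
Log2 signal (y axis) in the IL-2 and AktI cultures (x axis) of 12 genes, with 1 line per mouse and the background level dotted. Mouse 1 is lowest in both cultures for Jchain, Igkv8-30, Iglv1, Igkv6-14 and Erdr1, while the lines of Cd8a lie together.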

How the data were processed

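RNA of cytotoxic T cells was hybridised to Affymetrix mouse whole-genome arrays. The deposited values are log2 signals that the authors made by RMA in Affymetrix Expression Console 1.1, and they were used as given, for the 3 arrays with AktI and the 3 in IL-2 alone. The columns of all 6 arrays were mapped by their labels, and the other 6 arrays of the series entered no fit.

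limma 3.58.1 (R 4.3.3; lmFit and eBayes) was fitted with the treatment and the mouse as a block, and p-values were adjusted by Benjamini and Hochberg over the 45037 probe sets that are not controls. A gene passed with a change of 1.5-fold or more and an adjusted p under 0.05. Differences between mice were tested by the moderated F test of the same fit. Per the labels, arrays with the same number came from the same mouse. The p-values for AktI therefore rest on how the differences within pairs vary over 3 animals of 1 experiment. Across probe sets above background, deviations from the group means correlated at 0.317, 0.122 and 0.171 for the same mouse. For different mice they correlated at -0.208 to 0.0326. Over all probe sets the values were 0.17, 0.0343 and 0.0607 for the same mouse and -0.102 to 0.0383 for different mice. The highest of the latter was above the value of mouse 2.

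GEO's platform annotation named 1 gene for 34945 probe sets, several for 932 and none for 9160. Symbols were updated through gene identifiers with RefSeq (GRCm38.p6) for 34741. The brightest probe set that names a gene alone stood for each of 18193 genes, of which 9010 had more than 1. The background level was 5.009.

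The genes picked for naming were the 20 largest rises and 20 largest falls that moved the same way in every pair. To these were added a few fixed genes of the pathway and up to 4 passing genes of each list, by size of change. Where no member of a list passed, the 2 with the largest change were taken. Other list members were named after their values were seen. The members and lists were chosen with earlier results of these data known. Alternatives were no block, a random block, trend and robust settings, quantile normalization, a median shift, leaving out dim genes, the mean of probe sets, other fold minimums and leaving out each mouse; the counts of list members under them were added after seeing the data. The study's own test, which permutes labels, was not run, since 3 pairs allow too few permutations. The fit was tested on simulated data.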

Additional observations from a re-analysis of the deposited data

How the results depend on the processing

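With all settings as reported there were 285 genes higher with AktI, 202 genes lower with AktI and 2 genes that differ between mice. Without a fold minimum 601 and 493 genes passed, and with a 2-fold minimum 98 and 59. Without replicate 1, 2 or 3 the counts were 216 to 253 higher and 120 to 209 lower, the lowest without mouse 1, and 0 or 1 genes differed between mice. Trend and robust settings left 292 higher and 208 lower, and 50 genes then differed between mice. The cause was not tested.

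With no replicate block, that is without the pairing, the genes higher with AktI numbered 276 and the genes lower with AktI 187, of which 274 and 182 also passed with it. The median standard error was 0.0737 with the pairing and 0.0793 without it, and it was smaller with the pairing for 9908 of 18193 genes. A random block gave 279 and 198, quantile normalization 278 and 204, a median shift 299 and 199, and leaving out dim genes 283 and 201. Averaging the probe sets of each gene left 228 and 159. These means include probe sets below background, for example of Elovl7 and Socs2.

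Of 156 named genes, 115 passed, and 92 of them also passed without any 1 mouse. In all settings other than the changed fold minimums, 84 of the 115 passed. Hspa4, a heat shock protein that did not pass, had -0.18 and turned to 0.0561 as the mean of its probe sets (adjusted p = 0.651). Hk2 passed without mouse 3 (-0.598, adjusted p = 0.0329) and Slc16a3 without mouse 2 (-0.589). Low signals limit the sizes of changes from or to the background level.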
